A study of Mus musculus with 2 samples.

Results

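The ectodysplasin pathway genes described here are Eda, Edar, Edaradd, Eda2r and Tnfrsf19, which were taken by symbol from the gene list of the count matrices and are 5 of its 56694 genes. Single cells were prepared from epidermal whole mounts of mouse back skin at P2 (postnatal day 2), with 1 library per genotype. In Gli2_EKO mice (K14Cretg;Gli2 fl/fl, kept on C57BL/6N), Cre recombinase driven by the keratin 14 promoter deletes Gli2, a transcription factor of the hedgehog pathway, in keratinocytes, while dermal cells keep the gene. The control library, labelled WT, was made from floxed littermates without Cre according to the study's methods, and the number of mice behind each library is not stated. With 1 library per genotype there is no replicate error and no test between genotypes, so each value is given with a 95% interval that covers counting error only. Genotype, animal and library preparation cannot be told apart.

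Eda encodes ectodysplasin A, a ligand of the TNF family on the X chromosome that is cleaved from the cell surface. One splice form, EDA-A1, binds Edar, and a form that lacks a pair of residues, EDA-A2, binds Eda2r (also called XEDAR). Edar recruits the death domain adaptor Edaradd and signals to NF-kB, and loss of Eda, Edar or Edaradd causes hypohidrotic ectodermal dysplasia, known in the mouse as Tabby, downless and crinkled. In skin the pathway is best known for the formation of hair placodes and of sweat and sebaceous glands. Tnfrsf19 (TROY) is a receptor related in sequence to Edar and Eda2r that is expressed in developing follicles and for which ectodysplasin is not an established ligand. The libraries hold 3′ tags, so that the EDA-A1 and EDA-A2 transcripts were counted as 1 gene.

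The genes lie on 4 chromosomes of GRCm39, in the GENCODE vM39 annotation. Eda spans chrX:99019212-99444368 on the plus strand, a gene of 425 kb, with 4 small genes on the same strand inside it that had at most 5 UMIs each. The other genes are on the minus strand, Edar at chr10:58436611-58511535, Edaradd at chr13:12487513-12535319, Eda2r at chrX:96320270-96420847 and Tnfrsf19 at chr14:61201283-61284366. The 250 bases before the start sites of the genes, taken from RefSeq sequences and placed on GRCm39 by exact match, were searched on both strands for TCF/LEF letters (CTTTGAT or CTTTGAA), for NF-kB letters (GGGA and TTCC with any 2 bases between) and for GLI letters (GACCACCCA). The TCF/LEF letters were searched because Axin2 and Lef1, genes of the Wnt pathway, had the patterns most like that of Tnfrsf19 across cell classes, a choice made after those patterns were seen. Among the 6 windows of the 5 genes, only that of Edar and 1 of the 2 Tnfrsf19 windows held TCF/LEF letters, shown in capitals and read 5′ to 3′ on the strand of the gene:
Edar, chr10:58511519-58511768: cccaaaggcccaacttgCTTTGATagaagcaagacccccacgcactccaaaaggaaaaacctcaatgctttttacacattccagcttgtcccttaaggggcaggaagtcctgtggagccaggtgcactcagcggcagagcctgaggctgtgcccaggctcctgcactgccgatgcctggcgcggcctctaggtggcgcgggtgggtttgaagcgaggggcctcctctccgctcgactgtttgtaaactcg
Tnfrsf19, internal start, chr14:61275437-61275686: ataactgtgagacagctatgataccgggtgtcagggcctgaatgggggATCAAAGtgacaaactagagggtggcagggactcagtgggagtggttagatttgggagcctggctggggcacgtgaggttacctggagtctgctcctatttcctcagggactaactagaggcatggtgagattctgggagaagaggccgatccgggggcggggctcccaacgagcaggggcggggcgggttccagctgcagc
The match began 233 bases upstream of the Edar start and 202 bases upstream of the internal Tnfrsf19 start, where the reverse strand carries the motif. Such letters occurred in 7.48% of 32851 windows of the same length, NF-kB letters in 1.21% and GLI letters in 0.225%. None of the 6 windows held NF-kB or GLI letters, which says only that these letters are not in these bases, and a match is no more than a description of the letters.

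The control library held 71021773 UMIs in 6326 barcodes and the Gli2_EKO library 48866478 UMIs in 4296 barcodes, with 0 barcodes in common. After filtering, 4456 control and 3093 Gli2_EKO cells remained, with medians of 11828 and 11936 UMIs per cell. Cells were clustered without the 5 genes and classed by marker genes, and a class is called after its markers with the ending "-like". Keratinocytes made up 74.5% of control and 74.6% of Gli2_EKO cells, so the preparations also held dermal and other cells. In all, 1741 cells were in interfollicular epidermis (IFE) classes, 3813 in follicle classes, 1524 in dermal classes and 360 in melanocyte-, Schwann-, immune- and endothelial-like classes, with 111 cells unassigned. Levels are UMIs of the gene per 1000000 UMIs of the summed cells (CPM), and differences between libraries are log2 ratios of Gli2_EKO over control. Both libraries were read as male, since Y-linked genes were found in 90.6% of control and 89.7% of Gli2_EKO cells and Xist in 0.247% and 0.194%, which bears on the X-linked Eda and Eda2r. Gli2 itself was read at 83.0 CPM in control and 84.6 CPM in Gli2_EKO keratinocytes. Where these 3′ tags lie relative to the deleted exons was not examined, so the values do not check the deletion. The paper measured Gli2 mRNA by qRT-PCR in back skin epidermis of another age. Gli1, a target of hedgehog signalling, was at 22.0 CPM in control and 12.3 CPM in Gli2_EKO keratinocytes, a log2 ratio of −0.84 (−1.01 to −0.67). Within matrix-like cells, which numbered 387 in control and 160 in Gli2_EKO, the Gli1 ratio was −0.24 (−0.65 to 0.15). The part of class shares in the keratinocyte value of Gli1 was not tested.

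**Figure D1:**
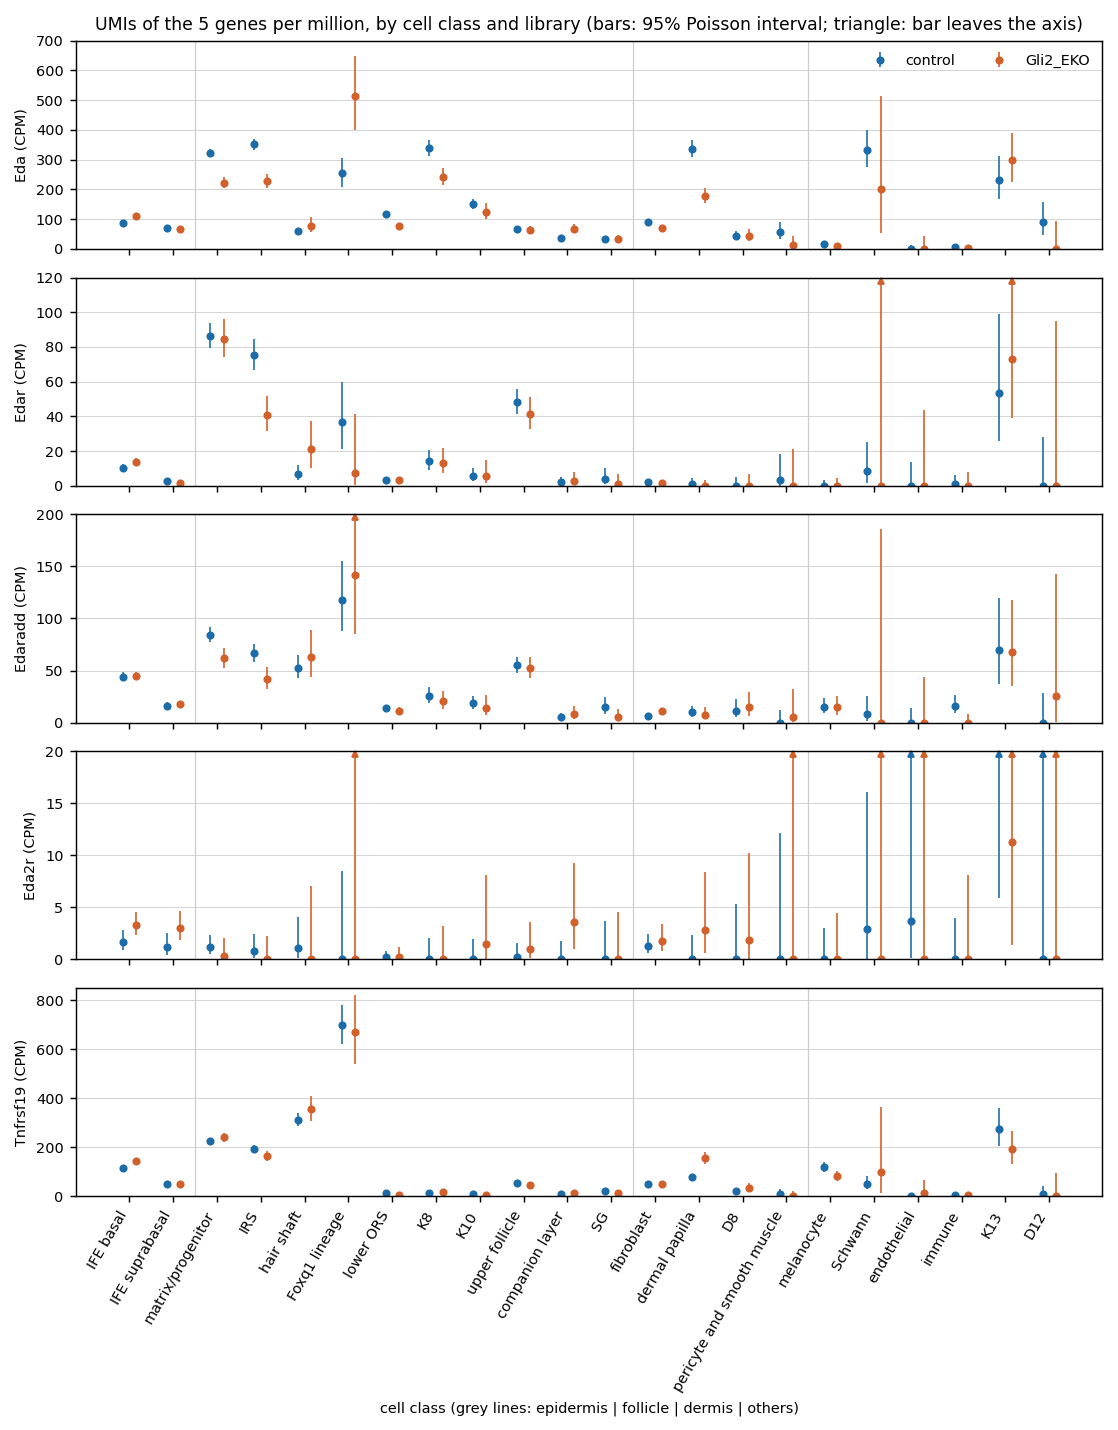
Levels of the 5 genes (CPM, 1 panel per gene, linear axes from 0) in each cell class of the control (blue) and Gli2_EKO (orange) library, with bars for 95% Poisson intervals and triangles where a bar leaves the axis. Edar is read in matrix-, IRS- and upper follicle-like cells and close to 0 in dermal classes, whereas Eda is read in matrix-, IRS- and dermal papilla-like cells.

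Eda, the ligand, was read in both epithelium and dermis. In the control library it was at 154 CPM in keratinocytes (7124 UMIs) and at 124 CPM in dermal cells (1263 UMIs). In the Gli2_EKO library the values were 113 CPM (3767 UMIs) and 84.2 CPM (575 UMIs), so that dermal cells were the lower of the pair in both libraries, with log2 ratios of dermal cells over keratinocytes of −0.32 (−0.41 to −0.24) and −0.42 (−0.55 to −0.30). Immune- and endothelial-like cells, which served as background, had 5.0 CPM in control and 1.9 CPM in Gli2_EKO.

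Within the epithelium the highest Eda levels were in classes of the follicle. Control matrix-like cells, the dividing progenitors of the hair bulb, had 323 CPM, IRS-like cells (inner root sheath, the sleeve that guides the hair) 351 CPM and the unnamed follicle cluster K8 339 CPM. Their intervals lay close together, and no order among them is given. Lower ORS-like cells (outer root sheath) had 117 CPM, IFE basal-like cells 88.4 CPM, IFE suprabasal-like cells 69.6 CPM and upper follicle-like cells 68.4 CPM in the control. Sebaceous gland-like cells were at the low end with 32.0 CPM in each library, from 32 and 26 UMIs. The IFE was lower than the follicle in both libraries, at 81.5 against 186 CPM in control (log2 ratio −1.19, −1.28 to −1.10) and at 94.5 against 131 CPM in Gli2_EKO (−0.47, −0.57 to −0.38). That difference was the smaller one in Gli2_EKO, where the follicle was lower and the IFE higher than in control. In Gli2_EKO it was −0.0027 when clusters were cut at a resolution of 1, so that its size rests on the clustering.

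Detection per cell was also higher in these follicle classes than in the IFE. With every cell thinned to 2000 UMIs, Eda was found in 37.6% of control matrix-like cells (32.7 to 42.6%) and 38.1% of control IRS-like cells (32.9 to 43.5%), against 16.6% of IFE cells (14.0 to 19.5%) and 0.9% of immune- and endothelial-like cells. Eda is a long gene, and UMIs from unspliced RNA can add to such genes. Over the 16 keratinocyte clusters, log2 Eda CPM and the percent of UMIs in genes above 200 kb had a Pearson r of 0.61, and over all 32 clusters 0.28, given as descriptions since clusters of one library share depth and free RNA. Matrix-like cells had high Eda with a low share of long-gene UMIs (3.93% in control and 3.55% in Gli2_EKO), while the Foxq1 lineage-like cells, at 254 and 514 CPM, had 11.1% and 11.99%. The Foxq1 lineage-like values rest on 110 and 69 UMIs in cells of low depth. UMIs from spliced and unspliced RNA were not told apart, and the part of unspliced RNA in these Eda levels was not tested.

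Among dermal cells, Eda was highest in the dermal papilla-like class, the condensed fibroblasts under the hair bulb. This class had 336 CPM in control against 89.0 CPM in fibroblast-like cells, and 178 against 71.6 CPM in Gli2_EKO. It consisted of a pair of clusters that differed in Eda. Cluster D5, led by Crabp1, Rspo2, Dcc and Fgf7, had 460 CPM in control and 247 CPM in Gli2_EKO. Cluster D3, led by Prlr, Corin and Inhba, had 126 CPM and 131 CPM. Eda was thus 3.66-fold higher in D5 than in D3 in control and 1.89-fold in Gli2_EKO. Schwann-like cells had 334 CPM in control, but only 4 UMIs came from Gli2_EKO, where the class was down to 3 cells.

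Edar, the receptor for EDA-A1, was an epithelial gene in both libraries. Keratinocytes gave 1240 of 1262 control UMIs and 605 of 612 Gli2_EKO UMIs. Control keratinocytes had 26.9 CPM and control dermal cells 1.8 CPM (18 UMIs), and Gli2_EKO had 18.1 CPM and 1.0 CPM (7 UMIs). Dermal cells were thus 15.3-fold lower in control and 17.7-fold lower in Gli2_EKO. Dermal papilla-like cells, where Eda was high, gave 2 Edar UMIs in control and 0 in Gli2_EKO, and melanocyte-like cells gave 0 in each.

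Within the epithelium, 3 classes carried most of the Edar signal. Over both libraries, matrix-like cells gave 43.1% of the Edar UMIs (40.9 to 45.4%) from 7.2% of the cells, IRS-like cells 18.0% from 6.3% and upper follicle-like cells 13.8% from 6.4%. Matrix-like cells had 86.2 CPM in control (575 UMIs) and 84.7 CPM in Gli2_EKO (233 UMIs), IRS-like cells 75.1 and 40.8 CPM, and upper follicle-like cells 48.2 and 41.4 CPM. Against the IFE, matrix-like cells were 11.3-fold higher in control and 9.43-fold higher in Gli2_EKO. The IFE level behind these folds depended on the processing, with control IFE basal-like cells between 2.97 CPM (15% of cells removed as doublets) and 14.5 CPM (none removed) and the control ratio of IFE over follicle between −3.61 and −1.78 under the same settings, against −2.20. Lower ORS-like cells were low, at 3.4 and 3.1 CPM, although they are follicle cells.

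In the IFE, Edar was at 10.5 CPM in control basal-like cells and 13.4 CPM in Gli2_EKO, and at 2.7 and 1.7 CPM in suprabasal-like cells. Most of this came from 1 cluster of dividing basal-like cells, K1, which gave 76 of 107 control IFE UMIs and 97 of 158 in Gli2_EKO. K1 scored almost as high for upper follicle markers (1.31) as for IFE basal markers (1.45), and whether follicle cells in K1 account for its Edar was not tested. With cells thinned to 2000 UMIs, Edar was found in 16.1% of control and 18.1% of Gli2_EKO matrix-like cells, in 12.98% and 8.33% of IRS-like cells, in 2.0% and 2.1% of IFE cells and in 0 of 114 and 0 of 44 immune- and endothelial-like cells, which allows up to 2.63% and 6.82%.

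Eda2r, the receptor for EDA-A2, was near the limit of detection. It had 53 UMIs in all control cells and 80 in all Gli2_EKO cells, or 0.9 and 1.9 CPM. The IFE gave 21 and 56 of these UMIs, the follicle 16 and 9 and the dermal cells 10 and 13. In Gli2_EKO the IFE was 5.53-fold above the follicle (3.18 against 0.58 CPM), with a log2 ratio of 2.47 (1.44 to 3.67), and in control 2.99-fold (1.58, 0.57 to 2.62). The Gli2_EKO log2 ratio was 1.36 at a cluster resolution of 1 and 1.10 when cells were classed one by one.

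Tnfrsf19 was read in all compartments, with its highest levels in the inner classes of the follicle. Foxq1 lineage-like cells (markers Foxq1, Krt75 and Gpnmb) had 697 CPM in control and 670 CPM in Gli2_EKO, hair shaft-like cells 312 and 355 CPM, and matrix-like cells 224 and 241 CPM. IRS-like cells had 195 and 163 CPM. The 4 classes kept this order in both libraries. The Foxq1 lineage- and hair shaft-like classes are parts of 1 split cluster, with medians of 4810 and 11342 UMIs per cell. For Foxq1 lineage markers the hair shaft-like part scored 3.26 and the Foxq1 lineage-like part 2.92, so these markers do not set the latter apart. For hair shaft markers the scores were 3.45 and 1.68. IFE basal-like cells had 117 and 145 CPM and suprabasal-like cells 49.4 and 49.6 CPM, a log2 ratio of suprabasal over basal of −1.24 in control and −1.55 in Gli2_EKO. The lower ORS-like class was low, at 12.1 and 6.9 CPM, as for Edar.

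In dermal cells Tnfrsf19 was at 49.5 CPM in control and 64.4 CPM in Gli2_EKO, below keratinocytes by 2.10-fold and 1.55-fold. Its place within the papilla-like class was opposite to that of Eda: cluster D5 had 43.8 and 42.3 CPM, and cluster D3 134 and 231 CPM. D5 was lower than D3 in Tnfrsf19 by 3.07-fold in control and 5.45-fold in Gli2_EKO. Melanocyte-like cells also held Tnfrsf19, at 119 and 81.8 CPM, and immune- and endothelial-like cells 4.2 and 5.6 CPM. The gene overlaps Gm41168 on the opposite strand, which had 146 UMIs.

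Edaradd, the adaptor of Edar, was spread more evenly over the epithelium than the receptor. The IFE had 33.8 CPM in control and 34.5 CPM in Gli2_EKO and the follicle 43.2 and 31.9 CPM, log2 ratios of −0.36 (−0.51 to −0.20) and 0.12 (−0.06 to 0.29). Matrix-like cells had 84.6 and 61.8 CPM, IRS-like cells 66.5 and 42.0 CPM, upper follicle-like cells 55.1 and 52.2 CPM and IFE basal-like cells 44.1 and 44.7 CPM. Foxq1 lineage-like cells were highest, at 118 and 141 CPM from 51 and 19 UMIs. Lower ORS-like cells were low here too, at 13.6 and 11.4 CPM, and so were suprabasal-like cells, at 15.8 and 17.6 CPM.

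Dermal cells had 7.2 CPM of Edaradd in control and 10.5 CPM in Gli2_EKO, below keratinocytes by 5.59-fold and 3.17-fold. The immune- and endothelial-like background reached 12.5 CPM in control and 0.0 CPM in Gli2_EKO, so the dermal level was not above background in the control. IFE basal-like cells therefore held the adaptor and Tnfrsf19 with little Edar, whereas matrix-like cells held all 3.

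Across genes, dermal cells differed from keratinocytes by more than 1.5-fold for 54.6% of 15448 genes in control and 54.4% of 14342 in Gli2_EKO. Among the 5 pathway genes, 3 of 5 passed that fold in each library, namely Edar, Edaradd and Tnfrsf19, each lower in dermal cells. Between IFE and follicle 40.4% of genes passed in control and 39.1% in Gli2_EKO, against 2 of 4 pathway genes with at least 50 UMIs (Eda and Edar) and 2 of 5 (Edar and Eda2r). These shares are near the background, and nothing about the pathway as a group is read from them.

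**Figure D2:**
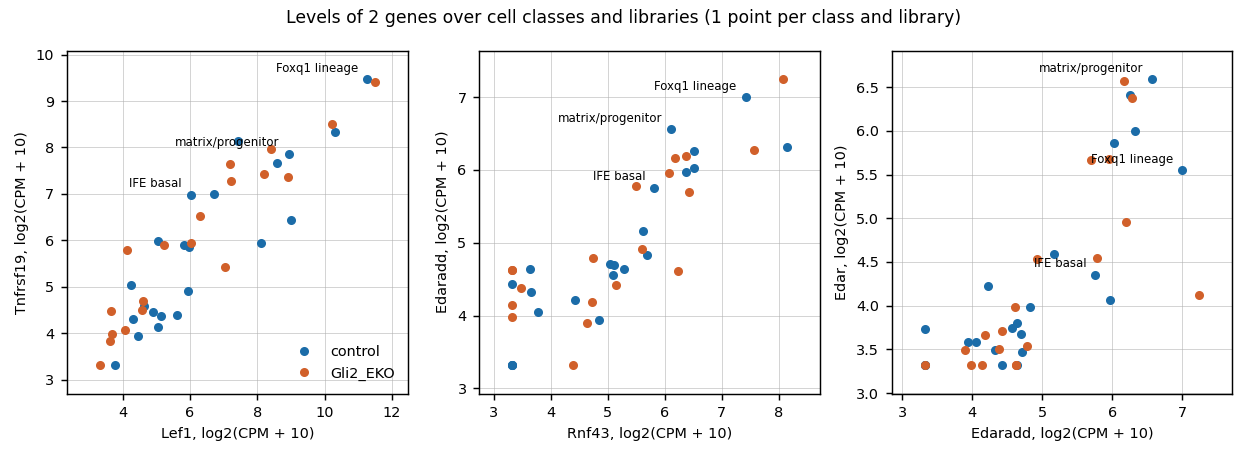
Tnfrsf19 against Lef1, Edaradd against Rnf43 and Edar against Edaradd, each as log2 of CPM plus 10, with 1 point for each of 41 combinations of class and library (control blue, Gli2_EKO orange). Tnfrsf19 and Lef1 have r = 0.91, with departures. Control dermal papilla-like cells have 502 CPM of Lef1 and 77.4 CPM of Tnfrsf19, against 479 and 224 CPM in control matrix-like cells. Foxq1 lineage-like cells hold more Edaradd for their Edar than matrix-like cells do.

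The pattern of each gene over classes was compared with that of 13514 other genes with at least 200 UMIs, over 41 combinations of class and library that share libraries, depth and free RNA. For Tnfrsf19 the most similar genes were Axin2 (r = 0.92), Lef1 (0.91), Mettl8 (0.83), Edaradd (0.82) and ENSMUSG00000120369 (0.81). Axin2 is a feedback inhibitor of Wnt signalling, Lef1 a transcription factor that partners with beta-catenin, and Edaradd the one pathway gene among the 5 nearest to another. Edaradd itself was most like Pym1 (0.86), Rnf43 (0.86), Gm4675 (0.85), Znrf3 (0.85) and Ptcd3 (0.85). Rnf43 and Znrf3 encode membrane ubiquitin ligases that remove Wnt receptors. Neither Axin2, Lef1, Rnf43 nor Znrf3 was a class marker.

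For Edar the nearest were Gm37194 (0.89), ENSMUSG00000120784 (0.84), Klrg2 (0.82), Pym1 (0.82) and the phosphatase gene Dusp9 (0.80). For Eda they were 5730522E02Rik (0.83), Fgfr2 (0.81), a receptor for fibroblast growth factors, 2610307P16Rik (0.81), the receptor gene Neo1 (0.80) and Frmd6 (0.80). For Eda2r, with its few UMIs, Nod2 (0.83), Cyp2w1 (0.81), Gm37266 (0.79), Als2cl (0.78) and Neurl1b (0.78) came first. Between pathway genes r was 0.79 for Edar and Edaradd, 0.82 for Edaradd and Tnfrsf19, and 0.59 for Eda and Edar.

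**Figure D3:**
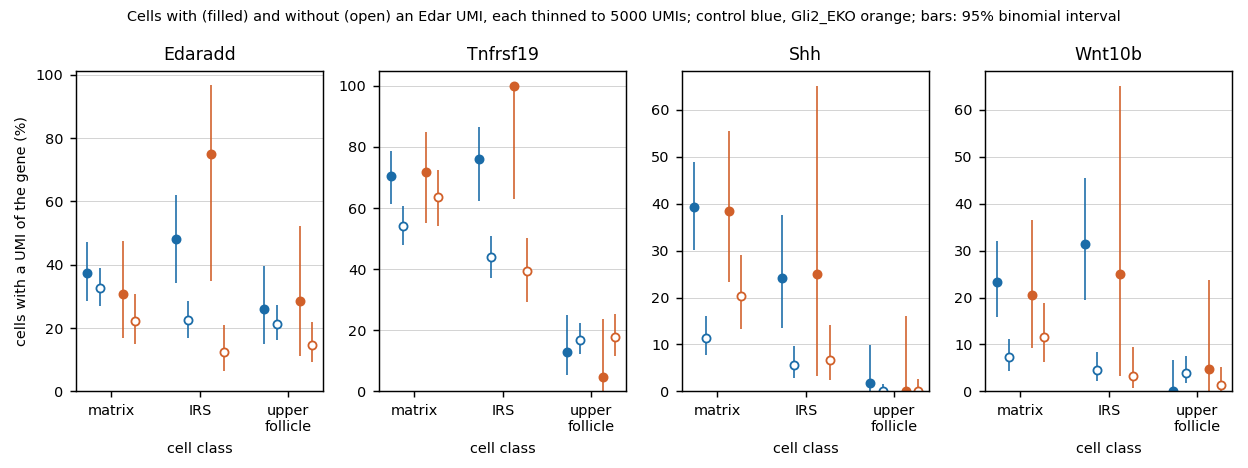
Percent of cells with a UMI of Edaradd, Tnfrsf19, Shh or Wnt10b among cells with and without a UMI of Edar, in matrix-, IRS- and upper follicle-like cells of each library thinned to 5000 UMIs, with 95% binomial intervals. Shh was found more often beside Edar, in 39.3% against 11.3% of control matrix-like cells.

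Genes found in the same matrix-like cells were counted after each cell was thinned to 5000 UMIs, which left 359 control and 152 Gli2_EKO cells. Edar was found in 31.2% of these control cells and in 25.7% of the Gli2_EKO cells. Shh, the hedgehog ligand of the follicle and a reported target of Edar signalling, was found in 39.3% of control cells with Edar (30.2 to 49.0%) and 11.3% of those without (7.7 to 16.0%). In Gli2_EKO the values were 38.5% (23.4 to 55.4%) and 20.4% (13.4 to 29.0%). Cells with Edar were the higher group in each library, but in Gli2_EKO the intervals overlapped. In IRS-like cells Shh was found in 24.1% of control cells with Edar and 5.6% of those without, and in Gli2_EKO in 2 of 8 cells with Edar and 6.7% of those without.

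Wnt10b, a Wnt ligand of the placode and hair bulb, had a similar split in control matrix-like cells, with 23.2% (15.8 to 32.1%) beside Edar and 7.3% (4.4 to 11.3%) without it. In Gli2_EKO it was 20.5% against 11.5%, with overlapping intervals. Edaradd was found in 37.5% of control matrix-like cells with Edar and 32.8% without, and Tnfrsf19 in 70.5% and 54.3%. The adaptor was thus read about as often in cells without an Edar UMI, with overlapping intervals, and at this depth a cell without a UMI can still express the gene. Eda and Edar were found in the same cell in 16.7% of control and 16.4% of Gli2_EKO matrix-like cells, where Eda as such was found in 57.4% and 53.3%. In control, Edar was found in 29.1% of the cells with Eda (23.0 to 35.8%) and in 34.0% of those without (26.5 to 42.1%). In Gli2_EKO it was found in 30.9% (21.1 to 42.1%) and 19.7% (11.2 to 30.9%), and without thinning to a common depth in 57.4% (47.5 to 66.9%) and 23.1% (12.5 to 36.8%) against 52.0% and 53.0% in control.

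**Figure D4:**
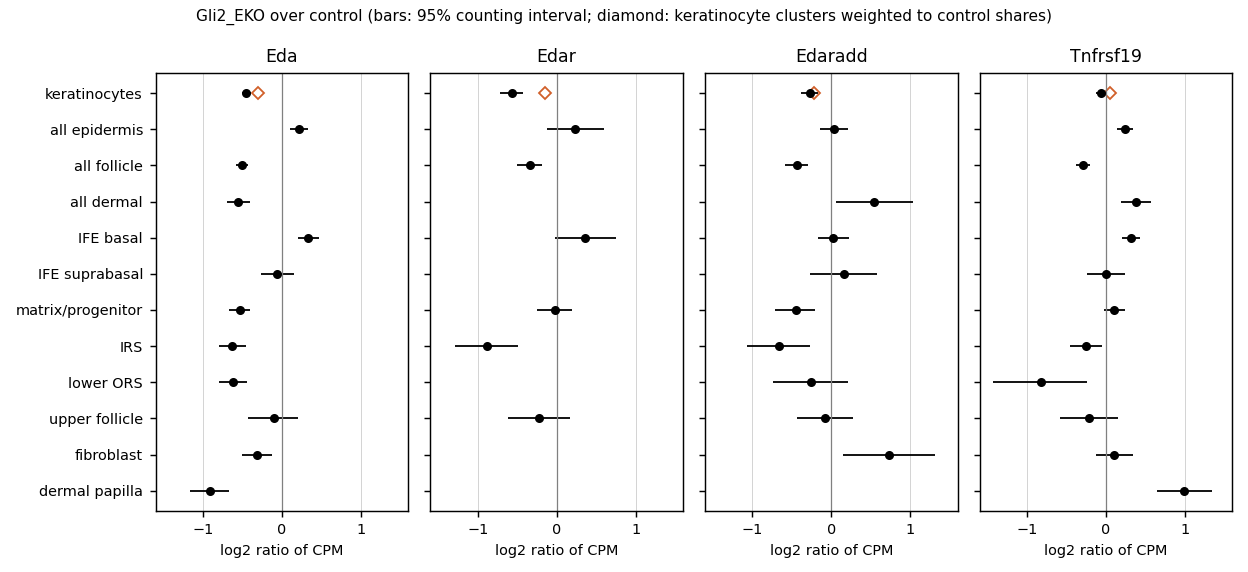
Log2 ratios of Gli2_EKO over control for Eda, Edar, Edaradd and Tnfrsf19 by cell class, with bars for 95% counting intervals, n = 1 library per genotype, and a diamond for the weighted keratinocyte ratio. Eda lies below 0 in matrix-, IRS-, lower ORS- and dermal papilla-like cells, and Edar lies at 0 in matrix-like cells.

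The libraries were then compared to ask how the pathway genes stood when Gli2 was deleted in keratinocytes. Over all keratinocytes, Eda was lower in Gli2_EKO (log2 ratio −0.45, −0.51 to −0.40), as were Edar (−0.57, −0.71 to −0.43) and Edaradd (−0.27, −0.38 to −0.17), while Tnfrsf19 was close to equal (−0.06, −0.12 to 0.00). Eda2r was higher (1.17, 0.59 to 1.77), from 41 and 67 UMIs. Only Eda2r, 1 of 5, passed 1.5-fold, where 14.2% of 15634 genes did, 666 higher and 1550 lower, and the median gene lay at −0.14. Under TMM scaling of edgeR, which shifted all these ratios upward alike, Eda was at −0.34, Edar at −0.45, Edaradd at −0.16 and Tnfrsf19 on the other side of 0, at 0.057. The IFE also had 1 of 5 past that fold, Eda2r (9.9% of genes), the follicle 0 of 4 (9.75%) and dermal cells 0 of 3 (7.27%).

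The classes had different shares in the libraries: matrix-like cells numbered 387 in control and 160 in Gli2_EKO, and IFE suprabasal-like cells 217 and 312. When the Gli2_EKO clusters were weighted by their control shares, the keratinocyte ratio was −0.15 for Edar in place of −0.57, −0.30 for Eda, −0.22 for Edaradd, 0.05 for Tnfrsf19 and 0.67 for Eda2r. For Edar, most of the difference was no longer present after this weighting. Within matrix-like cells it differed by −0.03 (−0.25 to 0.20), within upper follicle-like cells by −0.22 (−0.61 to 0.16) and within IRS-like cells by −0.88 (−1.29 to −0.49). The IRS-like value rests on 271 and 67 UMIs and ranged from −2.53 to −0.30 over the alternatives.

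Eda was lower in Gli2_EKO, with the whole interval below 0, within 4 of the follicle classes. In matrix-like cells 323 CPM in control stood against 223 CPM (−0.53, −0.67 to −0.40), in IRS-like cells 351 against 227 CPM (−0.63, −0.80 to −0.46), in lower ORS-like cells 117 against 75.8 CPM (−0.62, −0.80 to −0.45) and in cluster K8 339 against 242 CPM (−0.49, −0.70 to −0.28). Other follicle classes were higher in Gli2_EKO, namely Foxq1 lineage-like cells (1.02, 0.56 to 1.46), companion layer-like cells (0.95, 0.46 to 1.43, with the opposite sign under 2 alternatives) and, with an interval across 0, hair shaft-like cells (0.41, −0.15 to 0.95). Upper follicle-like cells were at −0.11 (−0.42 to 0.21). The follicle cluster K10 was also lower, at 150 CPM in control and 124 CPM in Gli2_EKO, from 284 and 86 UMIs. In the IFE, basal-like cells were at 88.4 CPM in control and 111 CPM in Gli2_EKO (0.33, 0.20 to 0.46). The basal-like clusters were uneven, with 98.6 and 142 CPM in K6 and 81.1 and 88.0 CPM in K1. K6 numbered 164 control and 269 Gli2_EKO cells, and K1 266 and 296. Suprabasal-like cells were at 69.6 and 66.8 CPM (−0.06, −0.26 to 0.15), and no direction is read from them. Of 17 classes with at least 50 Eda UMIs, 10 were lower and 7 higher, with the interval wholly below 0 in 6 and wholly above 0 in 3. The percent of UMIs in genes above 200 kb was also lower in Gli2_EKO, at 3.55% against 3.93% in matrix-like cells, 5.23% against 7.04% in IRS-like cells and 3.82% against 4.47% in IFE basal-like cells, and its part in the Eda values was not tested. Matrix-like cells also differed in markers, with 7 of 7 matrix markers summing to 865 CPM in control and 516 CPM in Gli2_EKO, none at 0, and 6 of 6 keratinocyte markers to 2530 and 4978 CPM. Their part in the matrix-like values was not tested.

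Dermal papilla-like cells, in which the keratin 14 promoter is not active, also differed in Eda, at 336 CPM in control and 178 CPM in Gli2_EKO (−0.92, −1.16 to −0.67). Eda was found in 35.6% of these cells in control (28.8 to 42.7%) and in 20.6% in Gli2_EKO (14.6 to 27.9%) at 2000 UMIs. The class was made up of 112 control and 59 Gli2_EKO cells of D5 and of 82 and 96 cells of D3. Within D5 the ratio was −0.90 (−1.22 to −0.59), from 463 and 105 UMIs, and within D3 it was 0.05 (−0.42 to 0.53). The 10 dermal papilla markers summed to 8531 CPM in control D5 and 6070 CPM in Gli2_EKO D5, none at 0. Markers of other cells were also higher in Gli2_EKO D5: the 6 melanocyte markers summed to 14.9 CPM in control (1 at 0) and 463 CPM in Gli2_EKO, the 6 keratinocyte markers to 353 and 625 CPM, and the 7 immune markers to 13.9 CPM (3 at 0) and 54.1 CPM (6 at 0). Their part in the D5 value was not tested. Melanocyte-like cells themselves were at 16.5 and 10.99 CPM of Eda. In fibroblast-like cells Eda was at 89.0 and 71.6 CPM (−0.31, −0.50 to −0.13).

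Tnfrsf19 had the reverse difference in the papilla-like class, with 77.4 CPM in control and 154 CPM in Gli2_EKO (0.99, 0.65 to 1.34). Within D3 the ratio was 0.78 (0.38 to 1.20), and within D5 no difference was detectable (−0.05, −0.93 to 0.77). In IFE basal-like cells Tnfrsf19 was at 117 and 145 CPM (0.31, 0.20 to 0.43), in matrix-like cells at 224 and 241 CPM (0.10, −0.03 to 0.24) and in IRS-like cells at 195 and 163 CPM (−0.25, −0.46 to −0.05). Among the basal-like clusters, K6 had 156 and 208 CPM of Tnfrsf19 and K1 97.8 and 114 CPM. Of 12 classes with at least 50 UMIs, 6 were lower and 6 higher. Edaradd was lower in matrix-like (−0.45, −0.71 to −0.20) and IRS-like cells (−0.66, −1.07 to −0.27) and at 0.02 (−0.17 to 0.22) in IFE basal-like cells. It was higher in fibroblast-like cells (0.73, 0.15 to 1.31, at 6.6 and 10.8 CPM from 50 and 55 UMIs) and over all dermal cells (0.54, 0.05 to 1.03). These fibroblast-like and dermal levels lay below the control background of immune- and endothelial-like cells, which in Gli2_EKO held no Edaradd.

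**Figure D5:**
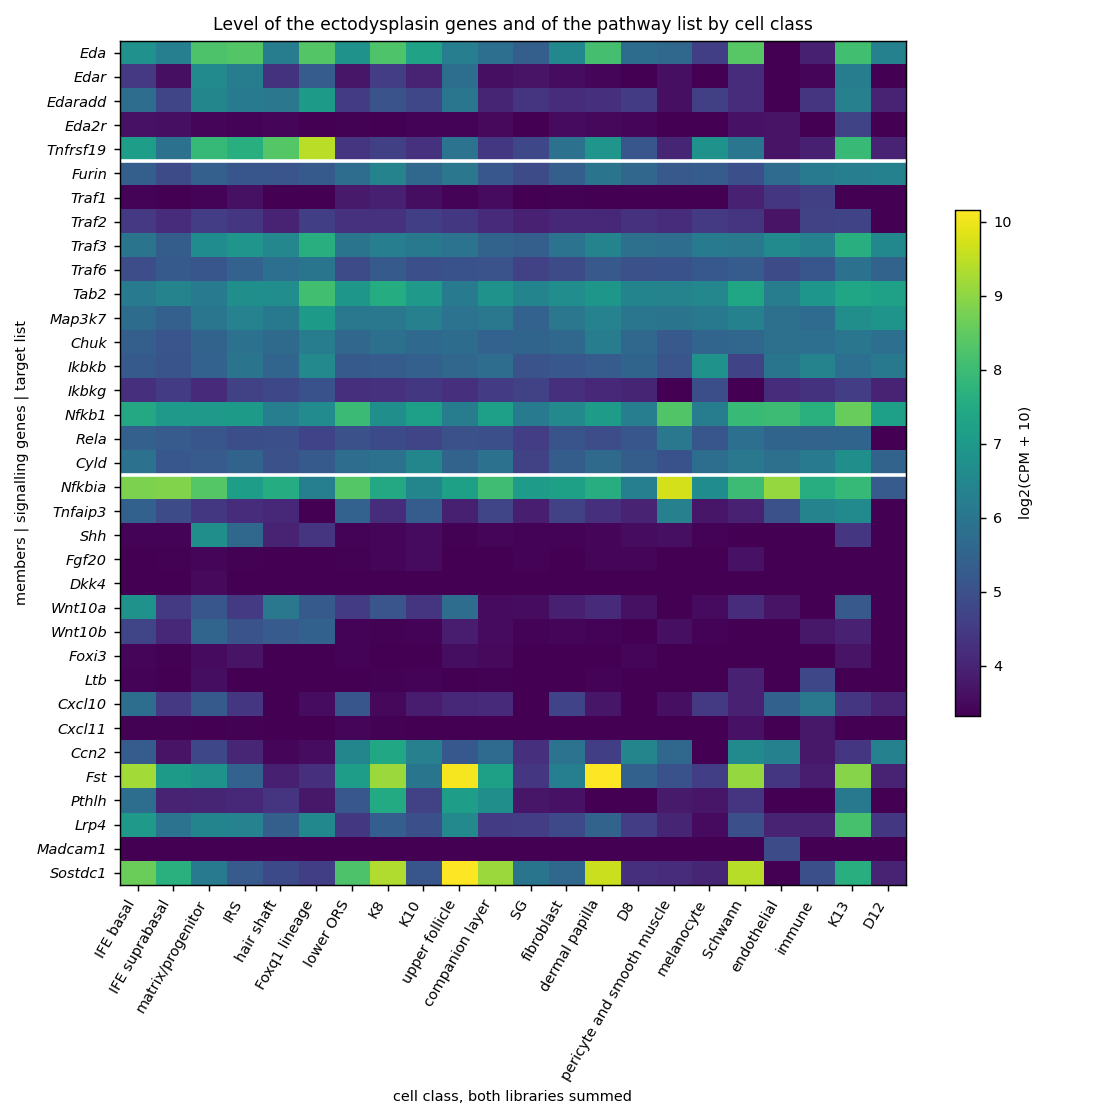
Levels of the 5 genes, of 13 signalling genes and of 17 reported targets by cell class, both libraries summed, as a colour scale of log2 of CPM plus 10. Edar and Shh share the matrix- and IRS-like classes, whereas among epithelial classes the targets Fst and Sostdc1 are highest in upper follicle-like cells, at 1075 and 1125 CPM.

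Other genes of the pathway were read from a list of 13 genes that act between the ligand and NF-kB, called signalling genes here. They were Furin, which cleaves the ligand, and Traf1, Traf2, Traf3, Traf6, Tab2, Map3k7, Chuk, Ikbkb, Ikbkg, Nfkb1, Rela and Cyld. A further list held 17 genes reported as targets in skin appendages. Over both libraries, Shh was at 95.4 CPM in matrix-like and 38.9 CPM in IRS-like cells but at 0.4 CPM in upper follicle-like cells, where Edar was at 45.7 CPM. Wnt10a (25.9, 12.6 and 44.5 CPM) and Lrp4 (75.4, 72.6 and 84.0 CPM) were read in all 3 of these classes. None of the signalling genes passed 1.5-fold in keratinocytes, IFE, follicle or dermal cells, with list medians of −0.18, −0.17, −0.12 and −0.16. In matrix-like cells, where 11.9% of 10022 genes passed 1.5-fold in either direction, 2 of 12 were lower, the ubiquitin ligase gene Traf6 (30.3 against 14.2 CPM, −1.10) and Tab2 (69.4 against 45.8 CPM, −0.60), which encodes an adaptor of the kinase Map3k7.

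Of the 17 targets, 12 had at least 50 UMIs in keratinocytes, with Cxcl10 higher and Ccn2 lower by more than 1.5-fold. Among all 15634 genes tested in keratinocytes, 666 were higher and 1550 lower by that fold. The target list was not tested as a group. In the follicle 4 of 12 targets were higher (Wnt10a, Cxcl10, Pthlh and Sostdc1) and none lower, with a median of 0.28 against −0.07 for all genes tested there. Of those 14345 genes, 606 were higher and 793 lower. In dermal cells 3 of 8 targets were lower (Tnfaip3, Cxcl10 and Sostdc1), where 566 of all 12408 genes were lower. In the IFE Tnfaip3, an inhibitor of NF-kB, was the 1 of 10 that was higher, where 363 of all 12476 genes were higher. In matrix-like cells 5 of 11 targets were higher (Wnt10a, Cxcl10, Fst, Lrp4 and Sostdc1). Another 2 were lower, Tnfaip3 (13.5 against 6.54 CPM, −1.04) and Pthlh (7.05 against 4.36 CPM, −0.69, with an interval of −1.74 to 0.25). Of all 10022 genes tested in matrix-like cells, 458 were higher and 731 lower. Fst, which encodes the activin inhibitor follistatin, was at 44.2 CPM in control and 253 CPM in Gli2_EKO matrix-like cells (2.52), and Sostdc1, an inhibitor of BMP and Wnt signals, at 24.4 and 147 CPM (2.58). Both were highest outside this class. Over both libraries, dermal papilla-like cells had 1138 CPM of Fst and 773 CPM of Sostdc1, and upper follicle-like cells 1075 and 1125 CPM. In the control IFE Fst was at 453 and Sostdc1 at 370 CPM. The keratinocyte markers above were also higher in Gli2_EKO matrix-like cells, and the part of other cells in these Fst and Sostdc1 values was not tested. Shh was at 86.8 CPM in control and 116 CPM in Gli2_EKO matrix-like cells (0.42, 0.22 to 0.62). Nfkbia, the NF-kB inhibitor induced by the pathway, was at 274 and 378 CPM in keratinocytes (0.47). Its ratio was 0.31 within the IFE, 0.20 within the follicle and −0.23 in dermal cells. Foxi3, a placode transcription factor, had 40 and 32 UMIs in all cells and a keratinocyte ratio of 0.10 (−0.63 to 0.81). The placode targets Dkk4 (12 and 0 UMIs) and Fgf20 (25 and 10 UMIs) were too rare for a comparison.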

How the data were processed

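Epidermal whole mounts of P2 back skin were dissociated by the authors, and 10x 3′ v4 libraries were counted with Cell Ranger 9.0.1 on GRCm39. The deposited values are UMI counts per gene and cell without normalisation. Cells with more than 1000 and fewer than 8000 genes and under 15% mitochondrial UMIs were kept, and the 8% of cells per library with the highest Scrublet score (scanpy 1.11.5, expected rate 0.06) were removed as doublets. The doublet caller and the Harmony package of the study were not run. Log-normalised counts were clustered in Seurat 5.3.0 (R 4.3.3) on 2000 variable genes, without the pathway genes and their targets, and 20 principal components integrated by a Harmony procedure written anew (Louvain resolution 0.5). Each cluster was classed by its highest marker score (at least 1, with 3 or more markers in at least 10% of cells). A cluster below 50% of its library's median depth stayed unassigned if none of its class's markers was among its 10 leading genes. The hair shaft marker Krt85 is not used here. A cluster with hair shaft and Foxq1 markers was split after seeing the data, and its parts were named without the depth rule. The Foxq1 lineage-like part, with a median of 4810 UMIs, is below that depth.

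UMI counts were summed per class and library, with exact 95% Poisson or binomial intervals (Python 3.11.15, scipy 1.17.1). A value of 0 is limited by 3 counts. The fold threshold was 1.5 for genes with at least 50 UMIs. PCR copies were collapsed by the UMIs, but intervals and limits cover counting error only. Named genes are the 5 pathway genes, the listed signalling and target genes, the 5 genes most like each pathway gene and class markers. The genes and lists were chosen with earlier results of these data known. Gene positions come from GENCODE vM39, matched by identifier, and promoter windows from RefSeq sequences of the GRCm38.p6 table. edgeR 4.0.16 gave TMM factors for an alternative only. The count summaries were tested on simulated data.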

Additional observations from a re-analysis of the deposited data

Results flagged for a closer look

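Eda and Tnfrsf19 differed between the libraries in opposite directions in the IFE and in the follicle. For Eda the log2 ratio of Gli2_EKO over control was 0.21 in the IFE and −0.50 in the follicle. For Tnfrsf19 it was 0.24 in the IFE and −0.29 in the follicle. With 1 library per genotype the difference between compartments was not tested, and the follicle classes had different shares in the libraries. Single classes did not all follow their compartment. Eda was at 0.33 in IFE basal-like, −0.06 in IFE suprabasal-like and −0.53 in matrix-like cells but at 1.02 in Foxq1 lineage-like cells, and Tnfrsf19 was at 0.31 in IFE basal-like and 0.10 in matrix-like cells.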

How the results depend on the processing

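No paired analysis was possible because each genotype is 1 library, and for the same reason no replicate could be left out. The alternatives were no doublet removal, removal of 15%, a mitochondrial limit of 10%, clustering at resolutions of 0.3 and 1, no integration, classing cells one by one by score, leaving out the top 50 genes, means over cells, TMM factors and, chosen after seeing the data, weighting to control cluster shares and leaving out cluster K13. Values are log2 ratios, and the cause of each shift was not tested.

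For the IFE over the follicle, 45 of 81 values stayed within their interval. Eda in control was −0.997 without doublet removal, −0.87 at 15%, −0.98 at the mitochondrial limit, −0.86 at resolution 1, −1.01 by cell score and −1.30 by cell means. In Gli2_EKO it was −0.11 at 15%, −0.16 at the mitochondrial limit, −0.0027 at resolution 1, −0.29 without integration, −0.21 by cell score, −0.38 without the top genes and −0.64 by cell means, below 0 in each but close to it in several. Edar in control was −1.78 without doublet removal, −3.61 at 15%, −3.05 at the mitochondrial limit, −2.89 at resolution 1, −3.24 without integration and −3.50 by cell score, and in Gli2_EKO −1.96 at 15%, −1.98 at the mitochondrial limit and −2.09 without integration. Edaradd in control was −0.19 at resolution 1, and Eda2r in Gli2_EKO 1.36 at resolution 1 and 1.10 by cell score. Tnfrsf19 in control was 0.055 at 15%, 0.039 at the mitochondrial limit, 0.12 at resolution 1, −0.12 without integration, 0.020 by cell score and −0.39 by cell means, which leaves its direction unsettled. In Gli2_EKO it was 0.49 at 15%, 0.53 at the mitochondrial limit, 0.62 at resolution 1, 0.50 by cell score and 0.20 by cell means.

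For dermal cells over keratinocytes, Eda in control was −0.42 without the top genes and −0.42 by cell means, and −0.56 by cell means in Gli2_EKO. Edar was −3.06 in control without doublet removal and −6.91 in Gli2_EKO at 15%. For Gli2_EKO over control in keratinocytes, TMM gave −0.34 for Eda, −0.16 for Edaradd and 0.057 for Tnfrsf19, and weighting −0.30 for Eda, −0.15 for Edar and 0.046 for Tnfrsf19. The count of genes past the fold, 2216 as reported, was 12293 with a minimum of 1 UMI and 709 at 2-fold. Within classes 384 of 435 ratios stayed within their interval. Eda in companion layer-like cells changed sign, from 0.95 to −0.12 at 15% and −0.032 without integration, and so did Tnfrsf19 in lower ORS-like cells, to 1.52 by cell score. Eda stayed between −0.94 and −0.83 in dermal papilla-like cells and Edar between −0.26 and 0.09 in matrix-like cells, whereas Edar in IRS-like cells ranged from −2.53 to −0.30 and in the IFE from −0.18 to 1.54. Depth limits Eda2r, the dermal Edar counts and the placode targets.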
